A study of Mus musculus with 9 samples.

Results

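Gastrocnemius muscle of mice injected with cisplatin was compared with that of saline-injected mice, using 6 of the 9 libraries of the series: those titled Cisplatin 1 to 3 and Normal 1 to 3. All genes that passed the expression filter of edgeR were described, 12859 of the 23238 gene symbols in the counts. All mice were females of the inbred strain C57BL/6, and the labels give their age as 4 weeks. The Cisplatin group had 4 injections of 3 mg/kg cisplatin in saline, given every other day into the peritoneum, and the Normal group, also labelled untreated, had 4 injections of saline; both received distilled water by mouth for 9 days. The remaining 3 libraries, from mice given the same cisplatin and 100 mg/kg of the agent labelled RP, entered the fit for its estimate of spread and are not described. The labels do not state that each sample came from its own mouse, so p-values cover only sample-to-sample spread, which may be technical.

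Cisplatin is a platinum drug that crosslinks DNA, used against many solid tumours, and loss of muscle mass is among its known side effects. Muscle mass reflects the balance between protein synthesis on ribosomes and protein breakdown, in which E3 ubiquitin ligases mark proteins for the proteasome while autophagy delivers cell parts to the lysosome. Fbxo32 (atrogin-1) and Trim63 (MuRF1) are muscle E3 ligases whose RNA rises in many forms of atrophy.

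Total counts were 8196030 to 8677236 in the Normal and 8352397 to 10678342 in the Cisplatin libraries. Levels are CPM, the counts of 3′ tags scaled to library size and the TMM factor of edgeR, and are not divided by gene length. Group levels are means ± SD of 3 libraries and log2 fold changes carry ± SE. The tissue label was checked against 15 muscle fibre markers, whose summed level was 152960.0 to 172228 CPM in Normal and 109343 to 136358 CPM in Cisplatin. Cisplatin replicate 3 lay farthest from the others of its group and had a scaling factor of 0.8504, against 0.9859 to 1.02 in the other 5 libraries. The ribosomal RNA precursor Rn45s took 12.6 to 12.8% of the Normal and 9.23 to 12.1% of the Cisplatin counts.

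The drug-treated muscle differed from the control muscle in a majority of the genes tested. By edgeR's quasi-likelihood test with Benjamini-Hochberg adjustment (adjusted p under 0.05, "risen" or "fallen" below), 3382 genes rose, 26.3% of those tested, and 3630 fell, 28.2%. The 2 groups did not overlap for 7999 genes, 62.2%. Over all called genes the directions were similar in number and unlike in size. Among abundant genes, more rose than fell by over 2-fold, as given below by expression level. The median log2 fold change of the risen genes was 0.93 and that of the fallen genes -1.41; a log2 fold change of 1 is a doubling. In a test against a 2-fold change, 669 genes rose by more (5.20%) and 1251 fell by more (9.73%). With limma-voom these counts were 427 and 718, and with DESeq2 443 and 877. Falls below a log2 fold change of -3 were found for 439 genes, and rises above 3 for 79. Over all genes tested the median was -0.08, with quartiles of -0.86 and 0.57; these shares and this median are the background for each gene group below.

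**Figure D1:**
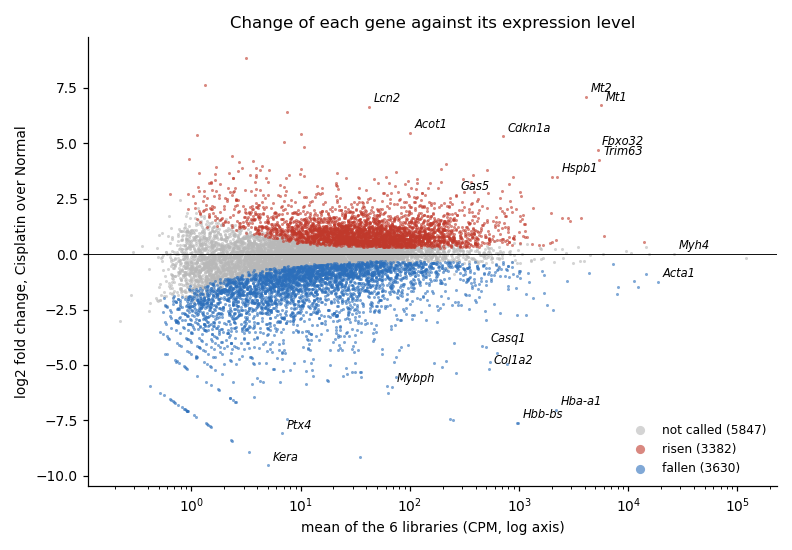
Log2 fold change of Cisplatin over Normal (vertical axis) against the mean level of the 6 libraries in CPM (horizontal log axis), 1 point a gene, with 3382 risen genes in red, 3630 fallen in blue and the rest in grey. Falls reach further than rises below about 10 CPM, and Mt1, Mt2, Fbxo32 and Trim63 stand apart among abundant genes. Fitted values of genes at 0 in a group, on the slanted lines at the lower left, depend on the prior count.

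Among called genes averaging 5 CPM or more with groups apart, the metallothioneins Mt2 and Mt1 rose furthest. Mt1, whose small cysteine-rich protein binds zinc, copper and other heavy metals (chromosome 8, 94179082 to 94180327 on the plus strand of GRCm38), was at 66.8, 125 and 123 CPM in the Normal libraries and 9925, 13035 and 10308 in the Cisplatin libraries. Its neighbour Mt2 (chromosome 8, 94172664 to 94173568 on the plus strand) was at 44.1, 76.8 and 58.5 CPM in the Normal libraries and 6994, 9206 and 8312 in the Cisplatin libraries. For both genes the lowest Cisplatin library lay far above the highest Normal library. The fitted changes were 106-fold for Mt1 (log2 6.72 ± 0.42, adjusted p = 7.85e-08) and 137-fold for Mt2 (log2 7.09 ± 0.49, adjusted p = 1.51e-07). The ligase genes were likewise apart. Fbxo32 was at 343, 472 and 334 CPM in the Normal libraries and 8155, 10204 and 11868 in the Cisplatin libraries, and Trim63 at 490.0, 659 and 486 CPM in the Normal libraries and 8811, 10896 and 11299 in the Cisplatin libraries. Their log2 fold changes were 4.72 ± 0.30 and 4.25 ± 0.23 (adjusted p = 7.85e-08 and 4.56e-08). Together Mt1, Mt2, Fbxo32 and Trim63 went from 0.109% ± 0.0205 to 3.76% ± 0.446 of all counts (SD, n = 3).

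Promoters of 3 of these genes are shown because metal response elements and FoxO sites are textbook control sequences of metallothioneins and atrophy ligases. Each line is the stretch of 250 bases before the RefSeq transcript start, on the plus strand of GRCm38.p6, in lower case, with matches in capitals. For the metallothioneins the capitals are the metal response element core, searched as TGCACNC or TGCGCNC on both strands; for Trim63 they are the FoxO site TGTTTAC, searched likewise. The stretches lie at chr8:94178839-94179088, chr8:94172368-94172617 and chr4:134314870-134315119.
Mt1: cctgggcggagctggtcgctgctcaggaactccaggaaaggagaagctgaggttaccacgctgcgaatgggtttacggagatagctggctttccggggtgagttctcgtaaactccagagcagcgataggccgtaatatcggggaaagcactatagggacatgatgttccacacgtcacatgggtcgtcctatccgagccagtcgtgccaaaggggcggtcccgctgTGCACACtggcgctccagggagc
Mt2: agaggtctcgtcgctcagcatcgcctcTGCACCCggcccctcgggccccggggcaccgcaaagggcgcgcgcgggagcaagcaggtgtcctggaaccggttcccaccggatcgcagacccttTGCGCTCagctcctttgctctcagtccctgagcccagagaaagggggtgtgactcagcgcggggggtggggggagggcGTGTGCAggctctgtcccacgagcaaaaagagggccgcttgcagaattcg
Trim63: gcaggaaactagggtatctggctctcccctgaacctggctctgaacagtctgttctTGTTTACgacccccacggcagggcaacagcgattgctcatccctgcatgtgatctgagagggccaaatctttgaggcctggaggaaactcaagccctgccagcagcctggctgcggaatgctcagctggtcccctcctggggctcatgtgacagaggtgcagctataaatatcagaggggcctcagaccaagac
The printed stretch of Mt1 held 1 match and that of Mt2 held 3. These counts cover only the bases before a single annotated start per gene. The gene starts given above for Mt1 and Mt2 differ from the RefSeq starts used here. Bases after the printed stretches were not searched for these counts, so they do not give the number of elements of either promoter. Of 9751 tested genes with a promoter in the table, 33.8% held the metal response element core at least once and 2.55% held 3 or more. The share was 34.7% among risen and 34.7% among fallen genes. The FoxO letters of Trim63 were in 2.71% of promoters, 2.71% of the risen and 2.64% of the fallen. A match of such short letters is a description of the sequence and does not show binding.

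Cdkn1a, Lcn2, Acot1 and 5 others made up the rest of the 12 largest rises. Cdkn1a, the cyclin-dependent kinase inhibitor p21, was at 26.8, 41.1 and 35.7 CPM in the Normal libraries and 1263, 1449 and 1439 in the Cisplatin libraries. Lcn2, the iron-binding acute-phase protein lipocalin 2, was at 0.483, 1.04 and 0.963 CPM in the Normal libraries and 100.3, 105 and 46.4 in the Cisplatin libraries, with Cisplatin replicate 3 the lowest of its group. Acot1, which splits acyl-CoA, was at 2.42, 4.86 and 5.90 CPM in the Normal libraries and 232, 195 and 162 in the Cisplatin libraries. No Cisplatin library overlapped a Normal library for these 3 genes. The log2 fold changes were 5.32 ± 0.25, 6.64 ± 0.56 and 5.48 ± 0.26 by edgeR (adjusted p = 1.74e-08, 6.79e-07 and 1.92e-08). The stress cytokine Gdf15 (5.44 ± 0.50), the neutrophil chemokine Cxcl2 (5.07 ± 0.59) and the chitinase-like Chil3 (6.44 ± 0.67) rose from under 1 CPM in each Normal library to between 6.54 and 25.3 CPM. Cnksr1, a scaffold of Ras signalling, and Abcc8, the sulfonylurea receptor of KATP channels, were last of the 12 with log2 fold changes of 3.83 and 3.83.

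The 12 largest falls held 6 globin symbols, the tendon genes Kera and Chad, and Ptx4, Nrep, Mybph and Myoc. The globin symbols Hbb-b1 and Hbb-b2 had no single position in the gene annotation, so the 6 may not be separate genes. Mybph, a myosin-binding protein of the sarcomere, was at 165, 153 and 90.4 CPM in the Normal libraries and 2.35, 2.66 and 1.31 in the Cisplatin libraries. Myoc, the secreted glycoprotein myocilin, was at 128, 131 and 103 CPM in the Normal libraries and 1.997, 1.90 and 1.90 in the Cisplatin libraries. Nrep, the neuronal regeneration related protein, was at 180.2, 90.8 and 101 CPM in the Normal libraries and 0.822, 1.43 and 2.62 in the Cisplatin libraries. In all 3 the groups were far apart, with log2 fold changes of -5.99 ± 0.42, -5.96 ± 0.26 and -6.26 ± 0.57 by edgeR (adjusted p = 1.51e-07, 1.74e-08 and 1.31e-06). Of the globins, which carry oxygen in red cells, Hba-a1 was at 2713, 4641 and 5595 CPM in the Normal libraries and 24.6, 34.7 and 40.2 in the Cisplatin libraries; near-identical globin copies may share reads. The 7 tested erythroid markers summed to 5526 to 12186 CPM in Normal and 42.2 to 78.9 CPM in Cisplatin. In bulk muscle, fewer cells of a type and less RNA per cell cannot be told apart. Kera, the cornea and tendon proteoglycan keratocan, summed to 254 counts in Normal and 0 in Cisplatin, at least 92.0-fold lower when 3 counts per group stand for 0. Ptx4, a pentraxin, had 341 counts against 1, a ratio of 370.5 (95% exact counting interval 66.1 to 14676), and the tendon gene Chad 374 against 2, a ratio of 203 (55.9 to 1684). These intervals cover counting error only.

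**Figure D2:**
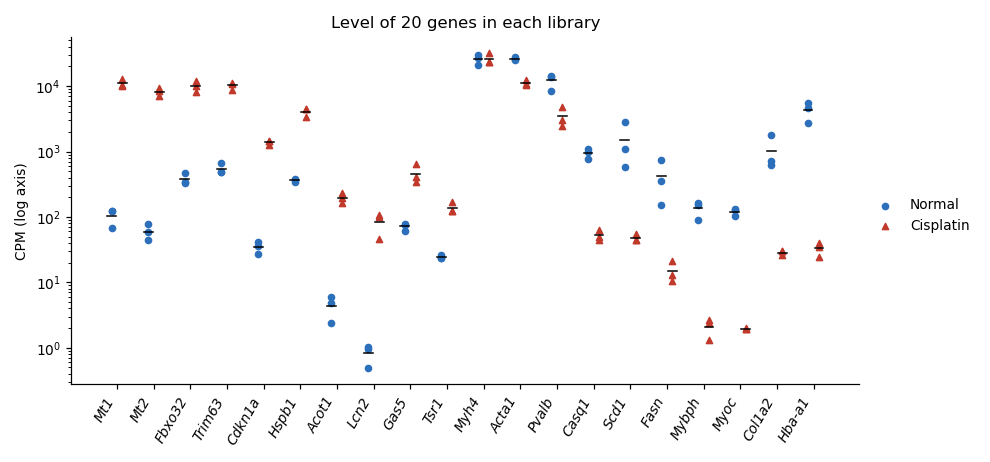
Level of 20 genes in CPM (log axis) in each Normal library (blue circles) and Cisplatin library (red triangles), with the group means as black bars. The groups overlap for the fast myosin Myh4 and are apart for the other genes.

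Direction went with expression level. The genes were cut into 10 bands of 1285 or 1286 by average log2 CPM over the 6 libraries. In the lowest band, with a median of 1.17 CPM, 42 genes rose and 383 fell, and in the highest, with a median of 215 CPM, 669 rose and 290 fell. The share of risen genes climbed from the lowest to the highest band, from 3.27% in the first and 20.1% in band 5 to 52.0% in the highest. Fallen genes were most frequent in band 4 (445) and least in band 9 (252). By over 2-fold, 10 genes rose and 157 fell in the lowest band, and 192 rose and 73 fell in the highest. The band's median log2 fold change went from -0.86 over -0.15 in band 5 and 0.07 in band 6 to 0.41. The median SE went from 0.69 to 0.14, so smaller changes could be called among abundant genes. Across the 12859 genes, which are not independent replicates, the Spearman correlation of level and log2 fold change was 0.34. The lowest and highest bands kept the sign of their medians in each alternative that could give them. A scarce gene passed the filter only if enough libraries reached the count minimum, so the lowest band describes the genes that passed. With the 30 genes at 0 counts over a group set to their bound against 3 counts, the band medians and the list medians below were the same to 2 decimals.

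The genes of smallest p in each direction are the extremes of a band and do not show what it held in general. In the lowest band these were Ccno, a cyclin-like protein of multiciliated cells, with 0 counts over Normal and 74 over Cisplatin, at least 22.7-fold higher, and Reps2, an endocytosis adaptor, with 71 and 0 counts, at least 25.7-fold lower. Ccno and Reps2 had no counts in a compared group, so they passed the filter only through other libraries. In band 3 they were Zfp365 (3.27) and the prostaglandin F receptor Ptgfr (-5.60), and in band 7 the RNA-binding protein Hnrnpa1 (2.55) and the cadherin Cdh13 (-4.32). In the highest band they were the small heat shock protein Hspb1, which was at 367, 341 and 375 CPM in the Normal libraries and 3321, 4491 and 4442 in the Cisplatin libraries, and the triad membrane protein Sypl2, at 337, 285 and 337 CPM in the Normal libraries and 9.87, 13.6 and 8.09 in the Cisplatin libraries. Neither gene overlapped between the groups.

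**Figure D3:**
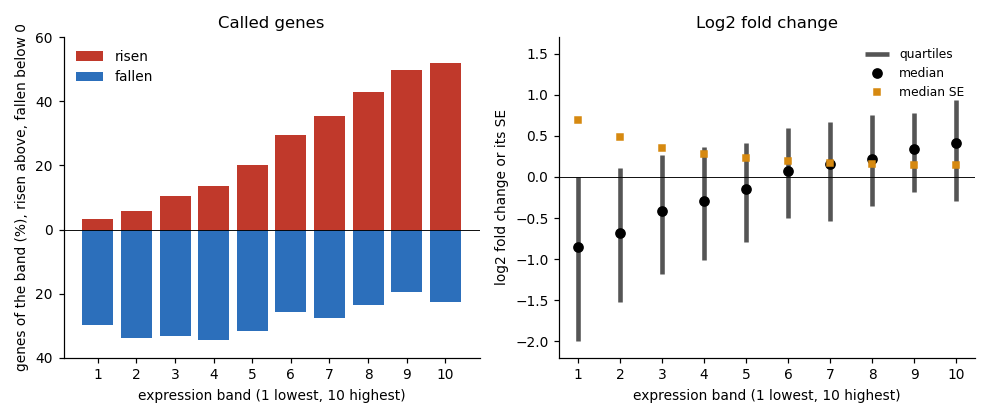
Left, percent of the genes of each expression band that rose (red, above 0) and fell (blue, below 0). Right, the median (black) and quartiles (grey) of the log2 fold change and the median SE (orange) in each band, with band medians going from -0.86 to 0.41.

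The most abundant transcripts took a smaller share of the counts. The 10 most abundant genes of each library went from 28.6% ± 1.32 to 22.7% ± 2.07 (exact permutation test, two-sided p = 0.1, the smallest that 3 libraries against 3 allow), and without Rn45s from 19.4% ± 1.54 to 14.7% ± 0.931. Acta1, the actin of the skeletal thin filament, was at 27586, 25086 and 26379 CPM in the Normal libraries and 10269.6, 12259 and 10636 in the Cisplatin libraries, and Tpm1, the tropomyosin that lies along it, at 19819, 17676 and 16639 CPM in the Normal libraries and 6476, 5774 and 7235 in the Cisplatin libraries. The 2 groups were apart in both, with log2 fold changes of -1.25 ± 0.17 and -1.47 ± 0.16. With Tnnc2, Mylpf, Myl1 and the calcium buffer Pvalb they went from 10.3% ± 1.07 to 4.00% ± 0.0160 of all counts. Myh4, the myosin of the fastest fibres, was at 27228, 30217 and 20803 CPM in the Normal libraries and 23713, 23109 and 32089 in the Cisplatin libraries, and its groups overlapped (0.01 ± 0.20, adjusted p = 0.966). After Mt1, Trim63, Fbxo32 and Mt2, the largest gains in CPM included the fast troponin I Tnni2, Hspb1, the nuclear RNA Malat1 and the ER-phagy receptor Fam134b. Fam134b went from 327 ± 45.4 to 3647 ± 656 CPM. The call of Tnni2 (log2 fold change 0.55) ended without Normal replicate 1 (adjusted p = 0.0502).

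Genes of the cytosolic ribosome rose in most members. Of 82 cytosolic ribosomal protein genes tested, 72 rose (87.8%) and 2 fell. The median log2 fold change was 0.59, beside 26.3% risen, 28.2% fallen and -0.08 over all genes. The list's median level was 191 CPM. In the highest expression band, with a median of 215 CPM, 52.0% of genes rose, 22.6% fell and the median was 0.41. The log2 fold changes of the list reached 1.30 at most, and 1 rise passed the test against 2-fold. The smallest p was that of Rps27l, a p53-responsive paralogue of Rps27, at 96.0, 113 and 104 CPM in the Normal libraries and 233, 244 and 292 in the Cisplatin libraries. The members that fell were Rpl3l (-0.62), a paralogue of Rpl3 found in striated muscle, and Rpl39l (-2.81), a paralogue of Rpl39; 1 fell in the fit of the Normal and Cisplatin libraries alone. As a share of all counts, the list went from 1.91% ± 0.0820 to 2.80% ± 0.164. Copies of ribosomal protein genes elsewhere in the genome may share their reads.

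Ribosome assembly factors rose further. Of 38 tested, 33 rose and 1 fell, with a median of 1.27. Tsr1, a maturation factor of the small subunit, was at 25.8, 23.7 and 23.7 CPM in the Normal libraries and 123, 124 and 168 in the Cisplatin libraries. Its groups were far apart (2.50 ± 0.16, adjusted p = 9.06e-08), and Rrp12 (2.33), Nop14 (2.33) and the nucleolar GTPase Gnl3 (2.33) were near it. The most abundant member, nucleolin (Ncl), went from 399 ± 28.8 to 1043 ± 180.2 CPM. The 1 fallen gene, the pseudouridine synthase Dkc1 (-0.49), was not called without Normal replicate 3 or Cisplatin replicate 2. Of 16 host genes of small nucleolar RNAs, whose introns carry guides for ribosomal RNA modification, 11 rose and 2 fell (median 1.33). Snhg12 was at 5.19, 4.28 and 3.85 CPM in the Normal libraries and 48.6, 41.0 and 54.5 in the Cisplatin libraries, and Gas5 at 62.0, 77.2 and 75.1 CPM in the Normal libraries and 406, 336 and 634 in the Cisplatin libraries. The fallen hosts were Snhg14 (-1.36) and Snhg11 (-1.67), and this count was 1 with limma-voom and without Normal replicate 2 or Cisplatin replicate 1 or 3. Among 50 DEAD and DEAH box helicases, many of which act in ribosome assembly and splicing, 33 rose, led by Ddx56 (2.33), with a median of 0.72.

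The translation machinery also rose in most members. Of 51 initiation factor genes 41 rose (80.4%) and 3 fell (median 0.95). Their median level was 77.3 CPM, and in expression band 9, with a median of 78.5 CPM, 49.7% of genes rose (median 0.34). Eif3a, the scaffold of the factor that prepares the small subunit, was at 345, 384 and 367 CPM in the Normal libraries and 1197, 1334 and 2019 in the Cisplatin libraries. Eif4ebp1, which in contrast holds back cap-dependent initiation, had the largest change of the list, at 39.98, 75.3 and 57.0 CPM in the Normal libraries and 664, 694 and 721 in the Cisplatin libraries (3.59 ± 0.24, adjusted p = 9.72e-08). The 3 that fell were the cap-binding protein Eif4e (-0.55) and the kinases Eif2ak1 (-0.75) and Eif2ak2 (-1.01), which phosphorylate eIF2; Eif2ak2 was not called without Normal replicate 1 or Cisplatin replicate 2. Of 20 cytosolic aminoacyl-tRNA synthetases, which load amino acids on tRNA, 18 rose and 0 fell (median 0.81), Vars from 10.9 ± 0.897 to 48.3 ± 3.09 CPM. Of 8 subunits of the CCT chaperonin, which folds actin and tubulin, 7 rose, Cct2 by 1.46. Mitochondrial ribosomal proteins split, with 29 risen and 14 fallen of 77 (median 0.23), for example Mrps18b (1.49) and Mrps22 (-1.50).

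RNA processing and chaperone genes rose in more members than they fell. Of 30 SR splicing factors and hnRNPs, which bind nascent RNA, 17 rose and 3 fell (median 0.52). Hnrnpa1 was at 7.01, 6.13 and 7.10 CPM in the Normal libraries and 42.5, 32.7 and 43.5 in the Cisplatin libraries, and its groups were apart (2.55 ± 0.18, adjusted p = 2.09e-07). Hnrnpf rose by 1.72 while its relative Hnrnph1 fell (-0.67). Of 32 spliceosomal snRNP proteins 16 rose and 4 fell (median 0.52), with the branch-site factor Sf3b1 at 1.15 and the imprinted Snrpn at -1.87. HSP70 and HSP90 chaperones rose in 11 of 18 and fell in 3 (median 0.49), Hsp90ab1 from 1533 ± 130.0 to 4269 ± 545 CPM.

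Protein breakdown genes rose in the proteasome and split in the enzymes that choose substrates. Of 37 subunits of the 26S proteasome 32 rose and 3 fell, with a median of 1.52. The list went from 0.455% ± 0.0120 to 1.52% ± 0.126 of all counts. Psmd4, a ubiquitin receptor of the cap, was at 239, 296 and 245 CPM in the Normal libraries and 1742, 1470.4 and 2192 in the Cisplatin libraries. Its groups were apart (2.79 ± 0.22, adjusted p = 4.78e-07). The 3 that fell were the interferon-inducible catalytic subunits of the immunoproteasome, Psmb8 (-1.35), Psmb9 (-2.52) and Psmb10 (-1.08). Among 40 interferon-stimulated genes, a list that holds these 3, 20 fell and 0 rose (median -0.77).

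Ubiquitin-specific peptidases, which remove ubiquitin, rose in 19 of 44 and fell in 2 (median 0.48), with the proteasome-bound Usp14 going from 55.2 ± 2.87 to 148 ± 23.4 CPM. The fallen members, Usp12 (-0.78) and Usp46 (-0.63), numbered 1 in several alternatives, among them each library left out other than Normal replicate 1. Of 29 E2 enzymes 14 rose and 3 fell, 5 with library size as the only scaling (median 0.30). The substrate adaptors showed no common direction: 10 of 49 F-box proteins rose and 14 fell (median -0.09), and 10 of 52 KLHL, KBTBD and ASB adaptors rose and 15 fell (median -0.07). Besides Fbxo32, Fbxo31 rose by 2.81, at 67.0, 84.5 and 83.3 CPM in the Normal libraries and 551, 576 and 524 in the Cisplatin libraries, while Asb15 fell, at 85.4, 93.3 and 92.0 CPM in the Normal libraries and 14.7, 12.6 and 17.1 in the Cisplatin libraries. F-box counts depended on single libraries. Risen members numbered 5 without Normal replicate 3 or Cisplatin replicate 2 and 6 without Normal replicate 1 or Cisplatin replicate 1; fallen members numbered 7 without Normal replicate 1 or Cisplatin replicate 2 and 8 without Normal replicate 2.

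Autophagy and lysosome genes rose in part. Of 34 autophagy genes 15 rose and 3 fell (median 0.33), at a median level of 51.5 CPM. In expression band 8, with a median of 43.9 CPM, 553 of 1286 genes rose and 302 fell (median 0.22). Of 17 subunits of the lysosomal proton pump 8 rose and 1 fell, 0 to 2 in the alternatives (median 0.30). Their median level was 58.1 CPM, and in expression band 9, with a median of 78.5 CPM, 639 of 1286 genes rose and 252 fell (median 0.34). The risen shares of both lists were close to those of their bands, and falls were rarer. The cathepsins, proteases of the lysosome, divided by member. Ctsl, from 118 ± 15.9 to 512 ± 62.8 CPM, and Ctsd, from 468 ± 32.3 to 1109 ± 121 CPM, rose, while Ctsk (-3.80), Ctsc (-1.71), Ctsh (-1.66) and Ctss (-1.45) fell. Ctss acts in antigen-presenting cells, whose MHC class II genes also fell; the part of those cells was not tested.

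**Figure D4:**
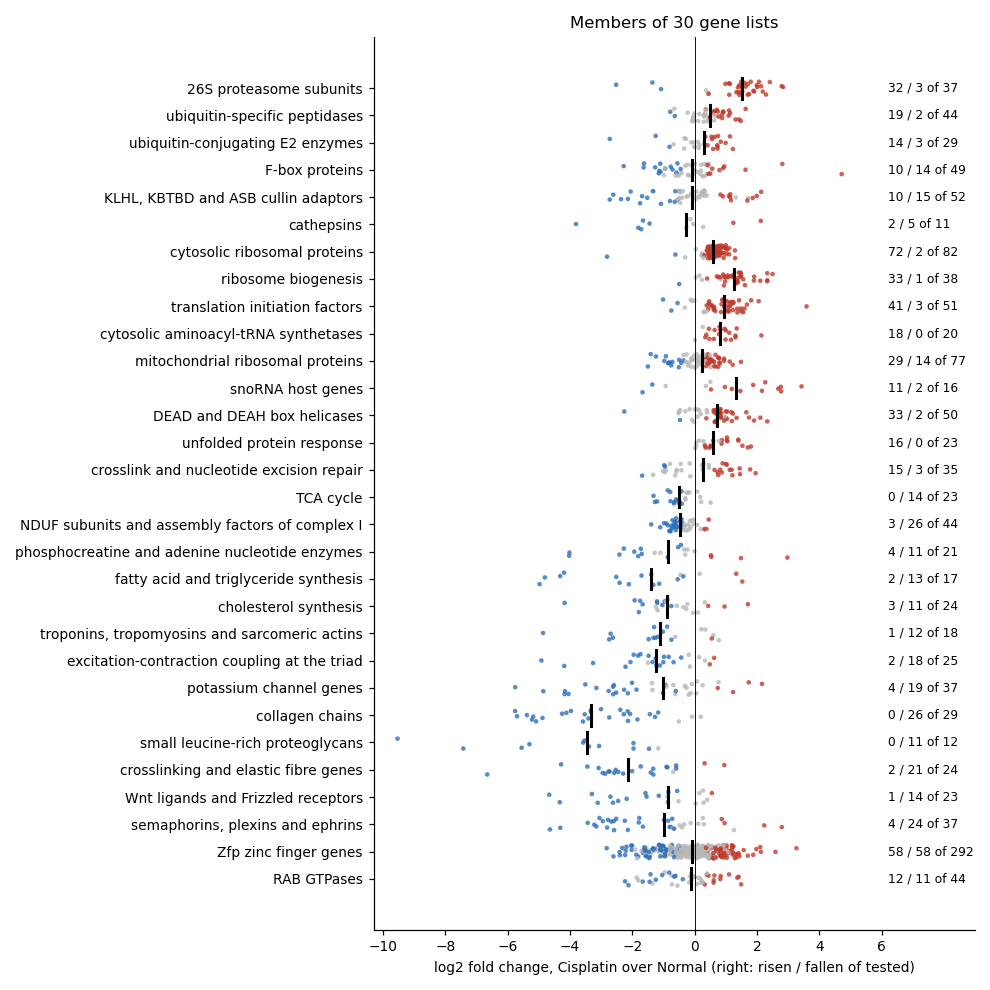
Log2 fold change (horizontal axis) of each tested member of 30 gene lists, in red where it rose, blue where it fell and grey where it was not called, with the list median as a black bar and the numbers risen, fallen and tested at the right. Proteasome, ribosome biogenesis and initiation factor members lie mostly right of 0, collagens and proteoglycans mostly left.

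Stress pathways differed in how uniformly they rose. Of 34 p53 targets 25 rose and 2 fell (median 1.32). The fallen were Ccng1 (-1.23) and Pltp (-0.34), and the count was 1 in several alternatives, among them each library left out other than Cisplatin replicate 2. In crosslink and nucleotide excision repair, which removes platinum adducts from DNA, 15 of 35 rose and 3 fell (median 0.28). Ercc1, part of the nuclease that cuts beside the lesion, was at 7.61, 6.94 and 6.62 CPM in the Normal libraries and 25.3, 26.8 and 30.2 in the Cisplatin libraries, and the damage-binding Xpa at 25.4, 21.0 and 24.2 CPM in the Normal libraries and 82.2, 56.3 and 105 in the Cisplatin libraries. The groups of both were apart (1.96 ± 0.20 and 1.78 ± 0.24). Cetn2 (-0.95), the nuclease subunit Mus81 (-1.68) and the Fanconi ligase Fancl (-0.98) fell; Fancl was called neither without Normal replicate 1 or 2 nor without Cisplatin replicate 2 or 3.

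The unfolded protein response of the endoplasmic reticulum rose in 16 of 23 members with 0 fallen (median 0.60). Its transcription factor Xbp1 was at 49.3, 57.9 and 50.2 CPM in the Normal libraries and 130.4, 159 and 166 in the Cisplatin libraries, and the chaperone Hspa5 (BiP) at 335, 328 and 395 CPM in the Normal libraries and 854, 1242 and 1358 in the Cisplatin libraries. The integrated stress response around Atf4 did not move as 1 block, with 9 risen and 8 fallen of 27: Atf4 (1.71) and Ppp1r15a (2.67) rose, while the serine synthesis genes Phgdh (-3.42) and Psph (-3.99) and the glutathione-degrading Chac1 (-2.50) fell. NRF2 targets rose in 21 and fell in 7 of 36 (median 0.62), with the glutathione synthesis gene Gclm at 2.52 and the pentose phosphate enzyme Tkt at -2.995. Of 8 small heat shock proteins only Hspb1 and Hspb7 (2.19) rose, and Hspb2 (-0.996), Hspb3 (-1.25) and Cryab (-0.72) fell. In the BCL2 family of apoptosis regulators 9 of 19 rose, both the protective Bcl2l1 (1.83) and the death-promoting Bax (2.02).

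Hormone and cytokine target lists overlapped with the genes above. Of 30 glucocorticoid receptor and FoxO targets, a list that holds Mt2, Fbxo32 and Trim63, 22 rose and 2 fell (median 1.49). Fkbp5, which binds the glucocorticoid receptor complex, was at 29.8, 107 and 67.3 CPM in the Normal libraries and 317, 323 and 308 in the Cisplatin libraries, and the transcription factor Cebpd at 98.1, 173 and 109 CPM in the Normal libraries and 789, 787 and 552 in the Cisplatin libraries. Both were apart between the groups (2.21 ± 0.33 and 2.49 ± 0.22), while the receptor Nr3c1 itself fell by 0.57 and the phosphatase Dusp1 by 1.76 on the log2 scale. Of 28 STAT3, C/EBP and acute-phase genes 17 rose and 5 fell (median 1.55). The protease inhibitor Serpina3n was at 4.95, 15.1 and 9.75 CPM in the Normal libraries and 162, 143 and 29.9 in the Cisplatin libraries, Cisplatin replicate 3 being the lowest of its group, and serum amyloid Saa3 rose by 3.61, whereas the orosomucoid Orm1 (-2.12) and Cebpa (-2.12) fell. Immediate early genes split, 12 risen and 9 fallen of 30. Within the AP-1 family Fosl1 (3.19), Junb (1.99) and Maff (2.93) rose, and Fos (-1.99) and Fosb (-3.52) fell. Of 23 chemokines, signals that draw white cells, Cxcl2, Ccl2 (2.93) and Cxcl1 (2.69) rose and 9 fell, Ccl8 being at 0 in each Cisplatin library; without Cisplatin replicate 3 the risen numbered 7, and with limma-voom Ccl2 was not called (adjusted p = 0.0608).

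Transport genes were split. Amino acid transporters rose in 10 and fell in 6 of 25 (median -0.24), the neutral amino acid carriers Slc43a2 (2.77) and Slc7a8 (2.37) being among the risen. Slc43a2 was at 12.8, 9.14 and 22.7 CPM in the Normal libraries and 88.2, 97.0 and 119 in the Cisplatin libraries. Other solute carriers fell in 45 and rose in 20 of 147 (median -0.22); the zinc and iron importer Slc39a14 rose, at 3.02, 4.16 and 5.05 CPM in the Normal libraries and 36.8, 53.05 and 24.2 in the Cisplatin libraries (3.22 ± 0.29, adjusted p = 1.19e-06). Mitochondrial carriers fell in 13 and rose in 7 of 37 (median -0.32), with the citrate carrier Slc25a1, which feeds lipid synthesis, going from 28.4 ± 17.3 to 2.32 ± 1.08 CPM. Among 21 enzymes of glutamine, arginine and polyamines, the polyamine synthesis genes Odc1 (2.13) and Srm (1.93) rose and Amd1 (-1.19) fell.

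Energy metabolism genes fell in most called cases. Of 44 complex I genes 26 fell and 3 rose (median -0.46), and of 23 TCA cycle genes 14 fell and 0 rose (median -0.49), with 1 and 0 of them past the test against 2-fold. Ndufb8, a subunit of complex I, was at 841, 816 and 1021 CPM in the Normal libraries and 432, 442 and 484 in the Cisplatin libraries, and Idh3a, of the TCA cycle, at 509, 509 and 636 CPM in the Normal libraries and 216, 246 and 222 in the Cisplatin libraries. Their groups were apart (-0.98 ± 0.14 and -1.28 ± 0.14). Leaving out Normal replicate 1, Normal replicate 2 or Cisplatin replicate 3 left 1 risen complex I gene, and 1 TCA cycle gene was called as risen without Normal replicate 3, with no low-count filter, with DESeq2 and with limma-voom. In glycolysis 11 of 16 fell, the muscle enolase Eno3 from 2628 ± 58.9 to 774 ± 71.7 CPM, whereas the abundant aldolase Aldoa was at 10813, 10440.0 and 10093 CPM in the Normal libraries and 10425, 10387 and 12033 in the Cisplatin libraries and overlapped (adjusted p = 0.725). Enzymes of phosphocreatine and adenine nucleotides, which buffer ATP, fell in 11 and rose in 4 of 21 tested (median -0.86). Mitochondrial creatine kinase Ckmt2 was at 912, 711 and 1305 CPM in the Normal libraries and 216, 215 and 175 in the Cisplatin libraries. Among AMP deaminases, the muscle form Ampd1 fell by 1.81 on the log2 scale while Ampd3, the red cell form, rose to 61.4 from 7.80 CPM. Enzymes of branched-chain amino acid breakdown rose in 11 of 21 (median 0.44), Bckdha by 1.04; the 4 that fell numbered 2 without Normal replicate 2 or Cisplatin replicate 3 and 1 without Normal replicate 3.

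Lipid synthesis genes fell in most members, and genes of lipid use rose in part. Of 17 genes of fatty acid and triglyceride synthesis 13 fell and 2 rose (median -1.39). The desaturase Scd1 was at 581, 2873 and 1086 CPM in the Normal libraries and 44.9, 55.7 and 43.8 in the Cisplatin libraries, and fatty acid synthase Fasn at 153, 748 and 349 CPM in the Normal libraries and 13.2, 10.4 and 21.4 in the Cisplatin libraries. The groups did not overlap although the Normal libraries spread widely, with replicate 2 the highest in both, and the log2 fold changes were -4.97 ± 0.52 and -4.80 ± 0.52 (adjusted p = 4.37e-06 and 5.74e-06). Elovl6 (-4.31) and Thrsp (-4.19) fell as well. The 2 that rose were Acacb (1.53), whose product restrains mitochondrial fatty acid entry, and the phosphatidate phosphatase Lpin1 (1.33). Of 24 cholesterol synthesis genes 11 fell and 3 rose (median -0.90). The reductase Dhcr7 (-4.17) had the largest fall of the list and squalene synthase Fdft1 (1.71) the largest rise. Uptake and beta-oxidation rose in 18 of 39 (median 0.42), among them Pdk4 (3.16), the kinase that shuts off pyruvate oxidation, and Mlycd (2.35). The 4 that fell numbered 2 without Normal replicate 3 or Cisplatin replicate 1 or 3. The list's median level was 143 CPM. In the highest expression band, with a median of 215 CPM, 52.0% of genes rose, 22.6% fell and the median was 0.41. The list's risen share (46.2%) and median were thus not above those of abundant genes by much, and falls were rarer (10.3%). Adipocyte markers fell in 9 and rose in 2 of 12, their summed level being 3676 to 6936 CPM in Normal and 3185 to 4084 in Cisplatin, and their part in the fall of lipid synthesis was not tested; the 2 risen markers, Lpl and Plin4, numbered 1 with library size as the only scaling and without Normal replicate 1, Normal replicate 2 or Cisplatin replicate 2.

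Contractile genes fell in most called members, and stretch-responsive genes did not. Troponins, tropomyosins and sarcomeric actins fell in 12 of 18 (median -1.10), the heart-type actin Actc1 from 1052 ± 418 to 36.1 ± 4.76 CPM. Myosin light chains and their regulators fell in 9 of 14 (median -1.31), with the kinase Mylk4 at -4.16 and Mylk2 at 1.46. Of 13 myosin heavy chains 2 rose, 4 fell and 7 were not called (median -0.12). Their summed levels overlapped, at 31362 to 35562 CPM in Normal and 27530 to 36848 in Cisplatin. The fallen heavy chains numbered 2 without Normal replicate 3 or Cisplatin replicate 2. Giant, Z-disc and M-band proteins split, 7 risen and 13 fallen of 30, with filamin C (Flnc, 2.25) and desmin (Des, 0.76) among the risen. Of the 7 stretch-responsive ankyrin repeat and Xin proteins, Ankrd2 (3.48), Xirp1 (2.31) and Nrap (1.78) rose and 0 fell; 1 fell without Cisplatin replicate 3 and with library size as the only scaling. The 1 risen gene of the troponin list, Tnni2, was not called without Normal replicate 1, and the count was 3 without Normal replicate 3 and 2 without Cisplatin replicate 1, with no low-count filter and with DESeq2. Risen myosin light chain genes numbered 2 without Cisplatin replicate 1 and with no low-count filter.

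At the triad, where the action potential releases calcium, 18 of 25 genes fell and 2 rose (median -1.23). Casq1, the calcium store protein of fast fibres, was at 1099, 968 and 777 CPM in the Normal libraries and 43.9, 62.7 and 49.8 in the Cisplatin libraries. Cacna1s, the voltage sensor, was at 231, 241 and 235 CPM in the Normal libraries and 109, 117 and 127 in the Cisplatin libraries. Groups were apart in both, with log2 fold changes of -4.18 and -1.001, and junctophilin Jph2 (-1.74) and the chloride channel Clcn1 (-2.22) lay between. The calcium pump Atp2a1 was not called (0.15 ± 0.18). Potassium channel genes fell in 19 and rose in 4 of 37 (median -1.01), and sodium and calcium channel genes fell in 10 and rose in 3 of 18 (median -1.14). Potassium channel Kcnk5 rose by 2.16. At the neuromuscular junction 10 of 16 fell, including acetylcholinesterase (Ache, -3.32), while the receptor kinase Musk rose, at 2.29, 5.32 and 3.13 CPM in the Normal libraries and 20.8, 26.4 and 24.6 in the Cisplatin libraries.

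Collagens and their proteoglycans fell further, by list median, than any metabolic list above. Of 29 collagen chain genes tested, of 44 in all, 26 fell and 0 rose (median -3.32), and their share of all counts went from 0.269% ± 0.154 to 0.0282% ± 0.00438. Col1a2, of the main fibrillar collagen, was at 1769, 618 and 709 CPM in the Normal libraries and 26.2, 29.7 and 29.6 in the Cisplatin libraries, Normal replicate 1 being the highest. Of 12 small leucine-rich proteoglycans, which sit on collagen fibrils, 11 fell (median -3.46), and lumican (Lum) was at 83.5, 63.0 and 64.4 CPM in the Normal libraries and 1.17, 2.38 and 1.67 in the Cisplatin libraries. Crosslinking and elastic fibre genes fell in 21 of 24 (median -2.15). Lox, the crosslinking lysyl oxidase, went the other way, at 29.95, 36.2 and 18.9 CPM in the Normal libraries and 68.9, 57.3 and 38.5 in the Cisplatin libraries (0.95 ± 0.25, adjusted p = 0.00540). Laminins and integrins fell in 14 of 28 (median -0.84) and matrix proteases and inhibitors in 15 of 29 (median -1.34), Timp2 from 483 ± 59.6 to 100 ± 23.8 CPM. The protease and elastic fibre lists each had 2 risen genes, and 1 in several alternatives, among them without Normal replicate 2 or 3 or Cisplatin replicate 1 or 2.

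Markers of the cells that make matrix also fell, but in part they are the same genes. The fibroblast list holds Lum, Dcn and Mfap5 and the tendon list Kera and Fmod, which are also in the matrix lists above. Of 16 markers of fibro-adipogenic progenitors and fibroblasts 13 fell and 1 rose, with a summed level of 4466 to 5909 CPM in Normal and 702 to 1498 in Cisplatin. Tendon markers fell in 9 of 9, from 224 to 470.1 to 7.23 to 14.99 CPM in sum, with Kera at 0 in Cisplatin. The part of these cells in the fall of matrix genes was not tested. Macrophage and monocyte markers fell in 15 of 20 (484 to 556 and 170.0 to 274 CPM), while the lysosomal Cd68 rose by 2.22; the 2 risen numbered 1 without Normal replicate 1 or Cisplatin replicate 2. MHC class II genes fell in 6 of 6 (188 to 256 and 3.09 to 9.87 CPM). Mast cell markers fell in 4 of 6 (42.96 to 55.2 and 8.46 to 10.6 CPM), the protease Mcpt4 being at 0 in Cisplatin, while Kit rose. Endothelial markers fell in 9 of 16 (1247 to 1302 and 623 to 894 CPM), smooth muscle and pericyte markers in 10 of 14 and Schwann cell markers in 9 of 14. Smooth muscle markers summed to 1527 to 1562 CPM in Normal and 1668 to 1878 in Cisplatin, a sum led by desmin, which muscle fibres also make. Of 7 neutrophil markers Lcn2, Retnlg (3.79) and Mmp8 (2.05) were called as risen, and Mmp8 was not called with limma-voom, in the fit of the compared groups alone, or without Normal replicate 2 or 3 or Cisplatin replicate 1 or 2. The list summed to 6.82 to 45.1 CPM in Normal and 58.7 to 179 in Cisplatin; without Lcn2, which other cells also make, the sums were 5.78 to 44.6 and 12.3 to 78.3 CPM and the groups overlapped. Markers with counts in Normal and 0 in each Cisplatin library included Kera and Mcpt4, which were tested. Others at 0 in each Cisplatin library did not pass the filter, so no fall was tested for them. Among these were the red cell anion exchanger Slc4a1, the dendritic cell Cd209a, Itgax and Flt3, and Ucp1 of brown fat, with others in the keratinocyte, chondrocyte and lymphocyte lists. The scarce Rhag, Mpo, Elane and Fcer1a likewise did not pass. Of the 21 lymphocyte markers 0 passed the filter.

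Cell-to-cell signalling families fell in most called members. Of 37 semaphorins, plexins, ephrins and their receptors, guidance molecules of axons and vessels, 24 fell and 4 rose (median -0.99), with Sema3c at -2.58 and the ephrin receptor Epha2 at 2.80. Of 23 Wnt ligands, Frizzled receptors and partners 14 fell and 1 rose (median -0.86). Fzd2 was at 13.2, 13.0 and 10.3 CPM in the Normal libraries and 0.705, 0.0951 and 1.07 in the Cisplatin libraries. The 1 that rose, Fzd4 (0.55), was not called without Normal replicate 1 or 3 or Cisplatin replicate 2, or with library size as the only scaling. Activin, myostatin and BMP genes fell in 18 and rose in 5 of 35 (median -0.59), the inhibin subunit Inhbb rising by 3.13. Insulin and mTORC1 genes rose in 19 and fell in 8 of 38 (median 0.58), with the activator Rheb at 1.46, the insulin receptor substrate Irs1 at -1.39 and the mTOR inhibitor Deptor at -1.39.

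Clock genes changed in both directions and by large amounts: 10 of 20 rose and 7 fell. The output factor Dbp was at 124, 94.6 and 97.2 CPM in the Normal libraries and 4.93, 5.23 and 3.81 in the Cisplatin libraries, and the activator Arntl (BMAL1) at 4.23, 4.51 and 2.17 CPM in the Normal libraries and 28.0, 23.2 and 23.8 in the Cisplatin libraries. The groups were apart in both. The labels give no time of day of collection, so a difference in collection time cannot be told apart from the treatment. Other large families split about evenly. Of 292 zinc finger genes named Zfp, 58 rose and 58 fell (median -0.08), and of 44 RAB GTPases, switches of membrane traffic, 12 rose and 11 fell (median -0.10).

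Genomic length went with direction at its upper end. The 12251 tested protein-coding genes with a position were cut into 10 classes by the span from start to end in GENCODE M21. The first 8 classes, up to 71.5 kb, had median log2 fold changes of -0.07 to 0.05. In the longest class, from 124 kb, 146 genes rose (11.9%) and 640 fell (52.2%), with a median of -0.76. The longest class had the lower median in each of 5 groups by expression level: in the lowest it was -1.66 against -0.69 for shorter genes, and in the highest 0.14 against 0.39. Without the members of the matrix, cell type, fibre, channel and signalling lists it was -0.72 against 0.01. Across all 12251 genes the Spearman correlation of span and log2 fold change was -0.13, and it was -0.03 for transcript length and 0.02 for the number of exons. Named examples are Cntnap2, a neuronal adhesion protein (chromosome 6, 45059357 to 47304213 on the plus strand), with 129 counts over Normal and 1 over Cisplatin, and Cdh13 (chromosome 8, 118283733 to 119324921 on the plus strand), at -4.32.

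**Figure D5:**
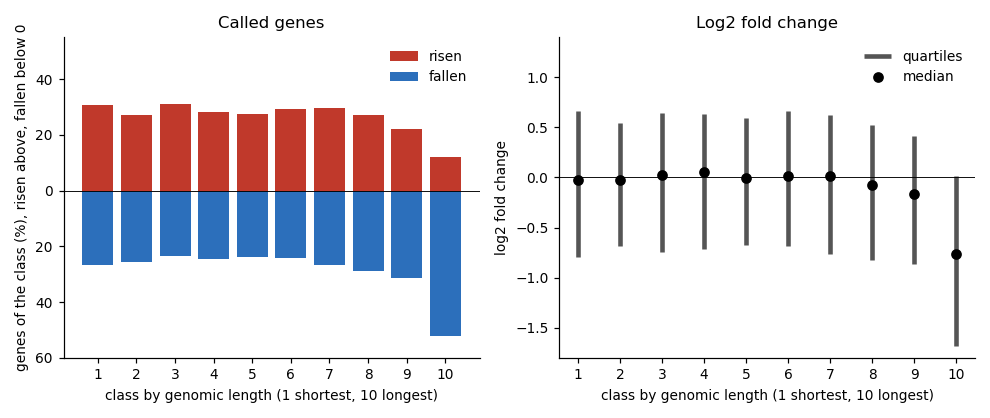
Left, percent of the genes of each of 10 length classes that rose (red, above 0) and fell (blue, below 0). Right, median (black) and quartiles (grey) of the log2 fold change, with the longest class at a median of -0.76.

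The promoters of 9751 genes gave 1 further pattern. Promoters of 300 bases around the start were cut into 5 classes by their number of CpG dinucleotides. In the class with the fewest (0 to 9), 298 genes rose and 755 fell (median -0.58). The medians of the other classes were -0.06 to 0.10. These genes were also scarcer, with a median of 7.199 CPM against 14.1 to 20.9, and the part of expression level in the pattern was not tested. A pyrimidine tract at the start (C followed by 4 pyrimidines, its C within 2 bases of the annotated start), as known from ribosomal protein genes, was found in 22 of 61 ribosomal protein promoters (36.1%), 6 of 14 snoRNA host genes and 12.4% of all. Its share was 13.2% among risen and 12.1% among fallen genes. The motif CACGTG was in 11.2% of risen, 8.18% of fallen and 9.87% of all genes, and TATAAA in 6.95%, 10.2% and 8.52%, both over the 250 bases before the start and both strands.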

How the data were processed

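Each sample came with its own table of raw counts as deposited by the authors, 23282 rows of gene symbol and count. Per the labels' protocols, total RNA went into Lexogen QuantSeq 3′ libraries. Per the submitters' processing notes, the tools include Bowtie2 and edgeR and the build is mm10. Which program counted the reads, its strand setting, its annotation and the tool versions are not given in the sources that were used, so reads of overlapping or antisense genes may be mixed. Rows sharing a symbol (79 rows, 35 symbols) were summed.

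Genes were filtered with filterByExpr, scaled by TMM and tested with glmQLFit, glmQLFTest and, against 2-fold, glmTreat in edgeR 4.0.16 (R 4.3.3), on all 9 libraries with 1 coefficient per group and Benjamini-Hochberg adjustment. SE was computed from the fitted change and F, as |log2 fold change| over the root of F. The common biological coefficient of variation was 0.197, with 6 residual degrees of freedom. Library pairs within a group differed beyond sampling noise (chi-square over its degrees of freedom, 11.3 to 22.8). The fit was tested on simulated data in which few genes changed, in equal numbers up and down. In these data a majority of genes changed, so the simulation does not test the scaling or error rate here. Alternatives used DESeq2 1.42.0 and limma-voom 3.58.1, other scalings and filters, the compared groups alone, a replicate block and each library left out; leaving out Rn45s, and the block within the compared groups, were chosen after seeing the data, and so was the sum of neutrophil markers without Lcn2.

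The members and the 100 gene lists were chosen with earlier results of these data known. Some lists were edited after values were seen: name patterns for laminins and integrins, RAB GTPases, kinesins and E2 enzymes were tightened, a mitochondrially encoded list was dropped, and snoRNA host genes were split from other noncoding RNAs. Lists are described by counts and medians, with no list test. Named genes are Fbxo32 and Trim63; the 12 largest rises and falls among called genes with groups apart, a mean of at least 5 CPM and a gene name; the 10 largest CPM gains and losses; the smallest p each way per band; and, per list, up to 6 called members by p, called members against the majority and the most abundant. Others, such as Rn45s, were chosen after their values were seen, and some results of these rules are not reported here. Positions are from GENCODE M21 (GRCm38, the assembly of mm10), promoters from RefSeq (GRCm38.p6). Exact tests used SciPy 1.17.1 and figures matplotlib 3.10.9 in Python 3.11.15.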

Additional observations from a re-analysis of the deposited data

How the results depend on the processing

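Over the alternatives risen genes numbered 2959 to 3432 and fallen genes 3087 to 3793, beside 3382 and 3630. Counts over 2-fold moved by more than 1.5 times with DESeq2 (443 risen) and limma-voom (427 risen, 718 fallen), beside 669 and 1251. The DESeq2 count of genes fallen by over 2-fold, 877, moved by less. The cause of these shifts was not tested. Leaving out each library in turn gave 3002 to 3226 risen, 3121 to 3401 fallen, 572 to 652 risen by over 2-fold and 1070 to 1245 fallen by over 2-fold. The replicate numbers did not pair the samples (correlations of same-numbered deviations 0.044, -0.0575 and -0.0324), and the fit with the replicate number as a block gave 3368 risen and 3620 fallen, 675 and 1256 by over 2-fold. Library size as the only scaling moved the median of all genes from -0.08 to -0.15. Of 200 counts of list members, 44 moved by over 1.5 times in at least 1 alternative; of the 72 counts of 10 or more, 4 did. These were both F-box counts and, with at least 5 CPM in 3 libraries, where fewer genes were tested, fallen potassium channel genes (11) and fallen semaphorin, plexin and ephrin genes (11). With library size as the only scaling, and with that filter, risen F-box genes numbered 6. Of 883 called genes that the naming rule gave, 748 were called in each alternative that tested them and 0 reversed. Under the 5 CPM filter fallen chemokines numbered 5 and risen chemokines 1, risen semaphorin, plexin and ephrin genes 2, fallen snoRNA hosts 0, and risen neutrophil, macrophage and fallen ribosomal protein genes 1 each. With the replicate block 1 TCA cycle gene and 2 troponin list genes were called as risen, and with the block within the compared groups Tnni2 was not called (adjusted p = 0.0587). The lowest band had no gene under the 5 CPM filter, so its median could not be computed there. With 3 libraries a group an exact test cannot go below p = 0.1, and genes of a few counts have wide counting error.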
